A study of Rattus norvegicus with 12 samples.

Results

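Ion channels set the electrical activity of the β-cell, and the genes described here are those whose names mark them as potassium, calcium, sodium, transient receptor potential (TRP), hyperpolarization-activated (HCN) or chloride (CLC) channel subunits, together with Abcc8, the sulfonylurea receptor of the ATP-sensitive potassium channel. Members were taken by name from the count table, with the condition of at least 10 reads in at least 3 of the 12 libraries, whichever group those libraries belonged to. Of 28727 named genes, 168 matched by name and 127 met the condition. All 127 also passed the expression filter of the statistical test, which kept 14669 genes. Clcn1, with 10 reads in its third-highest library, and Kcns2, with 11, stand just inside the condition, and Cacna1f, Kcnj13, Kcns3 and Trpm6, each with 9, just outside it. Of the 127, 109 had at least 10 reads in all 12 libraries. Cacna1e and Kcnn4, known from β-cells, did not meet the condition. Trpc1, also known from β-cells, has no entry under that name in the count table. Trpc4ap is a member by its name only, since it encodes a protein associated with a TRP channel, and Kcnip3 encodes a calcium sensor that also acts as a transcriptional repressor.

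In the β-cell, glucose metabolism raises the ratio of ATP to ADP, which closes the ATP-sensitive potassium (KATP) channel formed by Kcnj11 and Abcc8. The membrane then depolarizes, voltage-gated calcium channels open, and calcium entry triggers the exocytosis of insulin granules. Voltage-gated and calcium-activated potassium channels repolarize the membrane and end each spike. Tandem-pore potassium channels, TRP channels, HCN channels and sodium channels shape the resting potential and the spikes, and auxiliary subunits set the trafficking and gating of the pores.

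RNA came from INS-1 832/13 cells, a clonal line derived from a rat insulinoma, which keeps glucose-stimulated insulin secretion. The cells had been transduced with an adenovirus expressing GFP, the control, or with an adenovirus expressing mCherry-tagged mouse ChREBPβ, and were then kept at 2 or at 11 mM glucose over 48 h. ChREBPβ is the short isoform, encoded by Mlxipl, of the carbohydrate response element binding protein, a transcription factor activated by glucose metabolism. Each of the 4 groups (GFP at 2 mM, GFP at 11 mM, ChREBPβ at 2 mM and ChREBPβ at 11 mM) had 3 libraries, so all groups share the cell line and the exposure to a virus. The study describes its RNA-seq values as averages of independent experiments, while the labels give only a letter for each library of a group, and p-values measure the spread between these libraries.

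Library totals ranged from 25754488 to 60531215 counts and were lower in the GFP libraries at 2 mM (25754488 to 32938546) than in the ChREBPβ libraries at 11 mM (57088794 to 60531215), and 1 of the ChREBPβ libraries at 2 mM had 28595982 counts against 57313995 and 57726412 in the others. Txnip, a known ChREBP target, was measured at 24.3 to 27.7 counts per 1000000 reads of the scaled library (CPM) in the GFP libraries at 2 mM and at 448 to 472 CPM in the ChREBPβ libraries at 2 mM. The entry named ChREBPb in the table stood at 73.2 to 82.2 CPM with GFP and at 89.7 to 90.7 CPM with ChREBPβ at 2 mM, and which reads of the mouse transgene it counts is not given in the sources used here. Of 10 β-cell markers, 9 were above 1 CPM in these cells, and their summed level was 15200 to 17000 CPM with GFP and 6380 to 6520 CPM with ChREBPβ at 2 mM, and 11500 to 12600 CPM against 5430 to 5820 CPM at 11 mM. G6pc2, the tenth, reached at most 0.0735 CPM. Of the markers of other islet cells, Gcg, the glucagon gene of α-cells, averaged 1624 CPM in GFP cells and 433 CPM in ChREBPβ cells at 2 mM, and 1657 and 478 CPM at 11 mM, so it too was lower with ChREBPβ, and Sst and Ppy were at or near 0. Summed fibroblast markers reached at most 0.179 CPM, leukocyte markers 1.29 CPM and endothelial markers 1.86 CPM. The part of the lower β-cell and Gcg levels in the results below was not tested, and in bulk RNA fewer cells of a type and less RNA per cell cannot be told apart.

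ChREBPβ moved ion channel genes in both directions at both glucose levels. Levels below are CPM scaled with trimmed-mean (TMM) factors, changes are log2 fold changes ± SE with 3 libraries per group, and p-values are adjusted values from edgeR's quasi-likelihood test over all 14669 genes. A gene is said to have risen or fallen when its adjusted p was under 0.05 and its change at least 1.2-fold. At 2 mM glucose, 27 of the 127 genes rose (21.3%, against 21.0% of all tested genes) and 40 fell (31.5%, against 23.2%). The median change was -0.20 for the channel genes and -0.02 for all tested genes. At 11 mM, 30 rose (23.6%, against 14.3%) and 37 fell (29.1%, against 19.1%), with a median of -0.09 beside -0.02 for all genes. Changes of at least 2-fold were met by 14 rising and 10 falling genes at 2 mM and by 12 and 9 at 11 mM. Over all 14669 tested genes, 748 rose and 708 fell by at least 2-fold at 2 mM, and 571 and 421 at 11 mM.

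The comparisons at 2 and 11 mM share no library. In them, 24 channel genes rose at both glucose levels and 30 fell at both. These 54, all the channel genes that passed at both, were 42.5% of the channel genes. Of all 14669 tested genes, 28.3% passed at both in the same direction and 0.0136% in opposite directions. Another 13 passed at 2 mM alone, 13 passed at 11 mM alone and 47 passed at neither. Among the 24 were Kcnk4 and Kcnk13, and among the 30 was Kcnj5. These met the condition for members only with libraries of the virus in which they were higher, so a difference was bound to be seen. The same holds for Kcns1, which rose at 11 mM and had 10 reads in only 1 GFP library. The counts and shares include these genes. Passing at one glucose level alone does not show a difference between the levels: the difference itself passed the test for 11 genes, which are described further below. The share of rising genes depends on how libraries were scaled. When the library totals alone were used, 24 rose and 52 fell at 2 mM and 25 rose and 45 fell at 11 mM, while the median of all genes moved from -0.02 to -0.12 at 2 mM and from -0.02 to -0.10 at 11 mM.

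**Figure D1:**
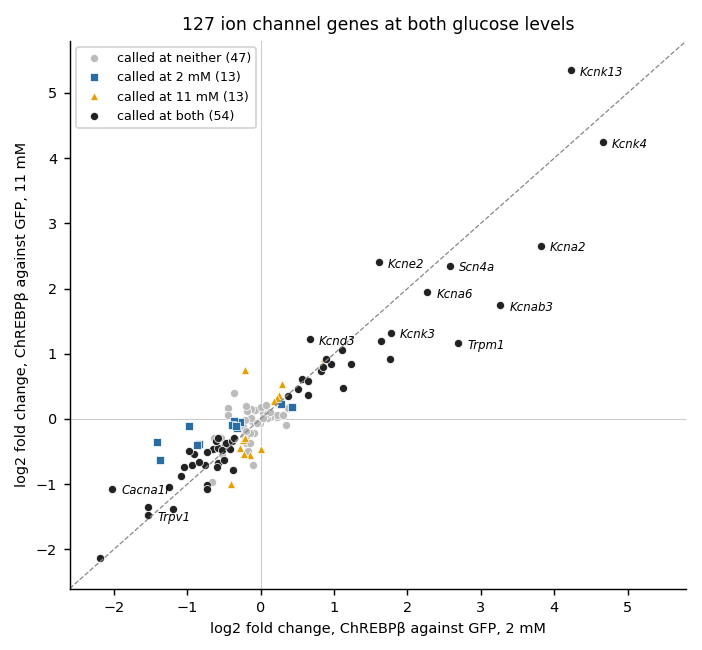
Each of the 127 ion channel genes is a point, with its log2 fold change for ChREBPβ against GFP at 2 mM on the x axis and at 11 mM on the y axis, and the dashed line marks equal changes. Black points passed the test at both glucose levels (54), blue squares at 2 mM alone (13), orange triangles at 11 mM alone (13) and grey points at neither (47). Kcnk4 and Kcnk13 lie farthest up on both axes, and Kcna2, Kcnab3 and Trpm1 lie well below the line.

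**Figure D2:**
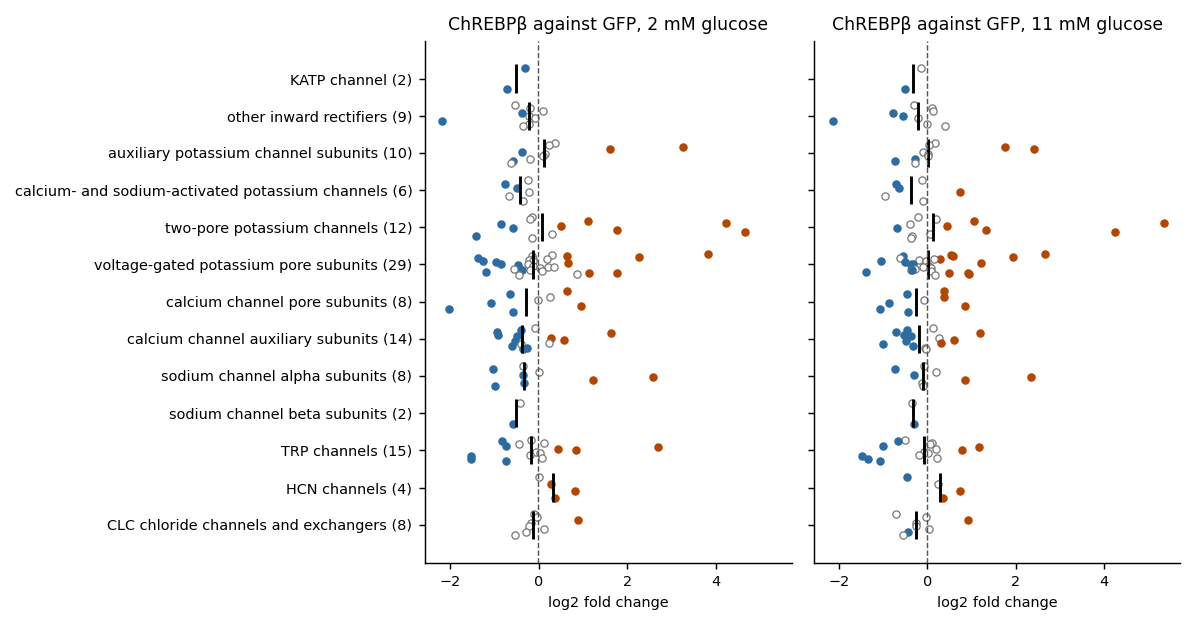
The log2 fold changes for ChREBPβ against GFP are plotted by the role of the gene at 2 mM (left) and 11 mM (right), with the number of genes per role in parentheses. Filled points rose (orange-brown) or fell (blue), open points did not pass the test, thick bars are the median of a role and the dashed line is the median of all tested genes. The tandem-pore and voltage-gated potassium channels spread widely to both sides, and the points of the KATP channel lie on the lower side.

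Both subunits of the KATP channel had lower RNA with ChREBPβ at 2 mM. Kcnj11, the pore, was measured at 431, 445 and 455 CPM with GFP and at 264, 268 and 272 CPM with ChREBPβ at 2 mM. At 11 mM its levels were 355, 339 and 348 CPM with GFP and 247, 249 and 238 CPM with ChREBPβ. The groups did not overlap at either glucose level, and Kcnj11 fell by 0.73 ± 0.04 at 2 mM (adjusted p = 2.46e-12) and by 0.51 ± 0.04 at 11 mM (adjusted p = 9.25e-10). Abcc8, the regulatory subunit that binds sulfonylureas, stood at 453, 441 and 519 CPM with GFP and at 378, 373 and 385 CPM with ChREBPβ at 2 mM, so that every ChREBPβ library was below every GFP library. The fall of 0.32 ± 0.06 (adjusted p = 6.78e-05) became -0.24 and missed the minimum change without GFP library c at 2 mM. At 11 mM the Abcc8 levels (352, 386 and 375 CPM with GFP, and 359, 328 and 321 CPM with ChREBPβ) overlapped, and the change of -0.14 ± 0.06 did not reach the minimum.

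Among voltage-gated calcium channels the pore subunits did not share a direction, also within the L-type and within the T-type genes. Cacna1d and Cacna1c encode the L-type channels that carry much of the β-cell calcium current, Cacna1a and Cacna1b the P/Q- and N-type channels of nerve terminals, Cacna1g, Cacna1h and Cacna1i the T-type channels that open at low voltage, and Cacna1s the L-type channel of skeletal muscle. Of these 8 genes, 2 rose and 4 fell at 2 mM (median -0.30), and 3 rose and 4 fell at 11 mM (median -0.26). Cacna1d did not pass the test in either comparison, with -0.01 ± 0.08 at 2 mM (95% interval -0.17 to 0.15) and -0.07 ± 0.08 at 11 mM (-0.23 to 0.09). Its libraries lay between 78.2 and 110 CPM, and those of GFP and ChREBPβ overlapped at each glucose level. Cacna1c was at 60.8, 74.0 and 63.2 CPM with GFP and at 92.0, 84.1 and 79.8 CPM with ChREBPβ at 11 mM. These groups were apart, and it rose by 0.37 ± 0.07 (adjusted p = 0.000169). Cacna1c overlaps Dcp1b, which changed by -0.17 at 11 mM and did not pass. At 2 mM the change of Cacna1c, 0.25 ± 0.07, fell short of the minimum (75.4, 63.7 and 71.8 against 83.9, 82.9 and 83.3 CPM).

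Cacna1a rose at both glucose levels. It was at 239, 216 and 248 CPM with GFP and at 370, 354 and 369 CPM with ChREBPβ at 2 mM, a change of 0.64 ± 0.06 (adjusted p = 2.81e-08). At 11 mM the levels were 266, 306 and 274 CPM against 397, 353 and 339 CPM, with a change of 0.37 ± 0.06 (adjusted p = 4.91e-05). All ChREBPβ libraries were above all GFP libraries in each case. The T-type genes went opposite ways: Cacna1h rose from 151, 146 and 161 CPM to 289, 299 and 300 CPM at 2 mM (0.95 ± 0.05, adjusted p = 2.49e-12) and by 0.84 ± 0.05 at 11 mM, where its libraries stood at 159, 176 and 165 CPM with GFP and 316, 301 and 282 CPM with ChREBPβ. Cacna1h overlaps Tpsg1 in the annotation, a gene at a mean of 1.57 CPM, beside a mean of 229 CPM for Cacna1h.

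Cacna1g was at 45.7, 44.1 and 46.0 CPM with GFP and at 19.2, 22.7 and 21.8 CPM with ChREBPβ at 2 mM, and at 33.1, 32.6 and 34.4 CPM against 19.9, 18.4 and 16.2 CPM at 11 mM. It fell by 1.08 ± 0.07 at 2 mM (adjusted p = 8.16e-11) and by 0.88 ± 0.07 at 11 mM (adjusted p = 2.43e-09), with no overlap. Cacna1i, the least abundant T-type gene here by read count, fell by 2.02 ± 0.21 at 2 mM, from 3.53, 4.23 and 3.94 CPM to 0.788, 1.21 and 0.824 CPM. At 11 mM it fell by 1.07 ± 0.20, from 1.99, 2.92 and 2.14 CPM to 1.06, 1.30 and 0.969 CPM. Cacna1b fell by 0.65 ± 0.09 and 0.46 ± 0.09, and Cacna1s by 0.58 ± 0.14 and 0.45 ± 0.14, at 2 and 11 mM. The call for Cacna1s at 11 mM was lost without GFP library a (-0.34) or ChREBPβ library b (-0.37) of that glucose level.

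Most auxiliary subunits of calcium channels that passed the test were lower with ChREBPβ. Of 14 genes, 3 rose and 8 fell at 2 mM (median -0.38), and 3 rose and 7 fell at 11 mM (median -0.19). Cacnb3, a β subunit that regulates surface expression and gating, had the highest read count of all members (mean 698 CPM over all libraries). It stood at 596, 623 and 673 CPM with GFP and 753, 752 and 777 CPM with ChREBPβ at 2 mM, and its change of 0.27 ± 0.04 lies at the minimum. The call was lost with library totals (0.17) and without GFP library a (0.23) or b (0.26) or ChREBPβ library c (0.25) at 2 mM, and at 11 mM the change of 0.26 ± 0.04 missed the minimum but reached it with RLE factors (0.28), DESeq2 (0.28), a filter of 10 counts in every library (0.27) and without any of 4 libraries (0.27 to 0.29). Cacnb3 overlaps Tuba1c, which rose by 0.97 at 2 mM and 0.66 at 11 mM from a mean of 51.9 CPM. Since the counting of strand is not given, the part of overlapping reads in the Cacnb3 value was not tested.

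Other β subunits were lower. Cacnb2, which supports L-type channels in β-cells, was at 16.4, 16.3 and 17.5 CPM with GFP and at 11.1, 12.6 and 11.9 CPM with ChREBPβ at 2 mM, and fell by 0.49 ± 0.08 there and by 0.38 ± 0.08 at 11 mM (14.8, 13.7 and 12.3 against 10.4, 10.0 and 11.0 CPM). Cacnb1 fell by 0.91 ± 0.10 and 0.54 ± 0.10. It overlaps Rpl19, a ribosomal protein gene at a mean of 1040 CPM that moved the other way (0.38 and 0.29). Cacnb4 rose by 0.57 ± 0.24 at 2 mM and 0.61 ± 0.23 at 11 mM. That call was lost with library totals (0.47 and 0.53), and at 2 mM with no filter (0.57, adjusted p = 0.054), and at 2 mM also when any of 8 of the 12 libraries was left out (values of 0.48 to 0.66), and at 11 mM without any of 4 (0.44 to 0.65). Among α2δ subunits, which carry the pore to the surface, Cacna2d1 did not pass (-0.08 ± 0.06 and 0.13 ± 0.06), Cacna2d2 fell by 0.41 ± 0.08 and 0.46 ± 0.07, and Cacna2d4 rose by 1.64 ± 0.24 and 1.2 ± 0.22 from levels of 0.449 to 0.758 CPM in the GFP libraries. Cacna2d4 overlaps Adipor2, which changed by 0.14 and 0.11, and Lrtm2, which changed by 0.13 at 2 mM and 0.73 at 11 mM.

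**Figure D3:**
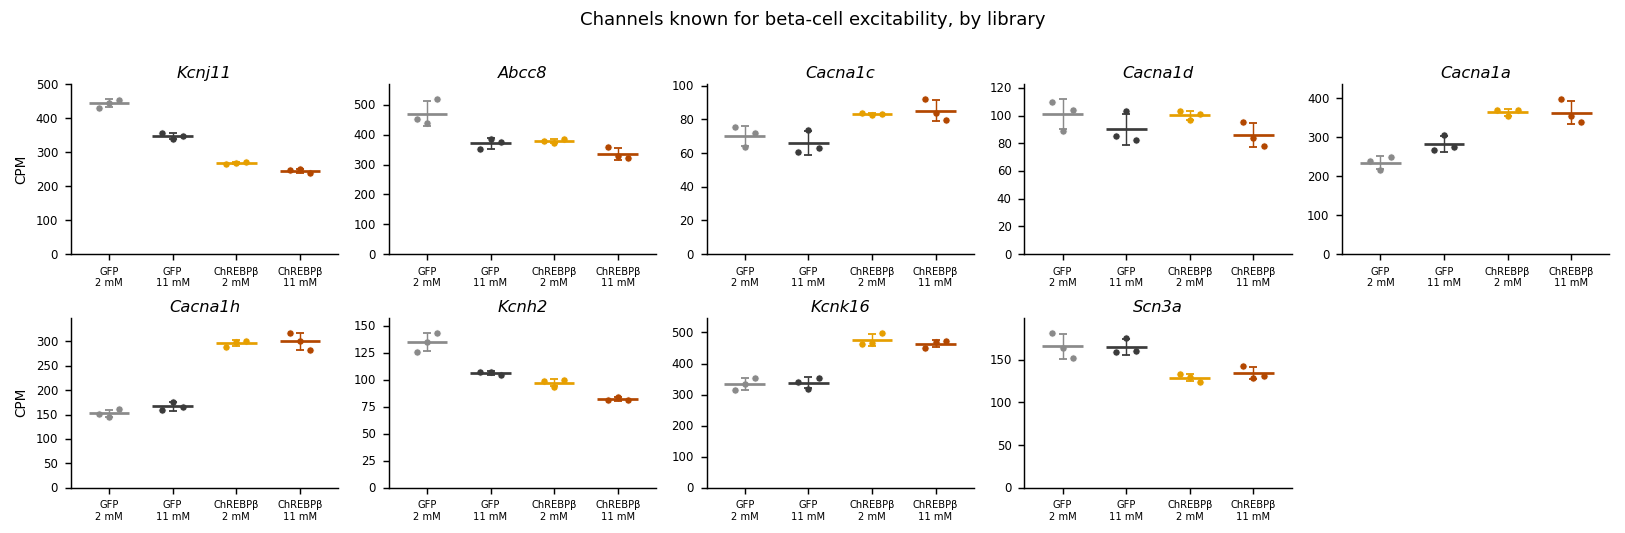
The level of 9 channels known for β-cell excitability is plotted in CPM from 0, each panel with its own scale, with 1 point per library, the horizontal bar at the mean and whiskers of 1 SD (n = 3). Kcnj11 and Kcnh2 sit lower and Cacna1a, Cacna1h and Kcnk16 higher with ChREBPβ, whereas the Cacna1d libraries of GFP and ChREBPβ overlap at each glucose level.

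Tandem-pore potassium channels carry background current. Of 12 genes, 5 rose at both glucose levels (Kcnk3, Kcnk4, Kcnk12, Kcnk13 and Kcnk16). Rising genes made up 41.7% of the list at each level, against 21.0% of all tested genes at 2 mM and 14.3% at 11 mM. At 2 mM 3 fell (25.0%, against 23.2%), and at 11 mM 1 fell (8.33%, against 19.1%). Kcnk16, a channel of pancreatic islets activated by alkaline pH, was at 315, 333 and 354 CPM with GFP and at 464, 467 and 498 CPM with ChREBPβ at 2 mM, and at 342, 319 and 354 CPM against 450, 470 and 473 CPM at 11 mM. The groups did not overlap, and it rose by 0.51 ± 0.05 (adjusted p = 2.13e-08) and 0.46 ± 0.05 (adjusted p = 1.57e-07). Kcnk16 overlaps Nudt13, which had a mean of 15.8 CPM.

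Kcnk3, an acid-sensitive background channel, stood at 42.3, 37.6 and 42.5 CPM with GFP and at 143, 130 and 146 CPM with ChREBPβ at 2 mM, a rise of 1.77 ± 0.06 (adjusted p = 1.99e-15). At 11 mM the levels were 43.2, 45.2 and 47.9 CPM against 118, 110 and 113 CPM, a rise of 1.32 ± 0.06 (adjusted p = 1.98e-13). Kcnk12, a pore subunit long known as silent, rose by 1.11 ± 0.07 at 2 mM, from 8.49, 8.66 and 8.69 CPM to 18.7, 17.7 and 19.3 CPM, and by 1.06 ± 0.07 at 11 mM.

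Kcnk4 and Kcnk13 were nearly absent without ChREBPβ. Kcnk4, a channel opened by membrane stretch and fatty acids, had 0, 10 and 1 reads in the GFP libraries at 2 mM and 91, 162 and 170 reads in the ChREBPβ libraries, or 0, 0.292 and 0.0321 CPM against 3.26, 2.89 and 3.04 CPM. At 11 mM it had 3, 8 and 10 reads with GFP and 170, 192 and 168 with ChREBPβ. Every ChREBPβ library was far above every GFP library, and the fitted change was 4.66 ± 0.41 at 2 mM and 4.24 ± 0.35 at 11 mM. The size of the change at 2 mM rests on GFP library b, which held 10 of the 11 reads, and was 7.26 without it. Kcnk13, a relative of Kcnk12, had 0, 9 and 6 reads with GFP against 90, 158 and 179 with ChREBPβ at 2 mM, and 4, 5 and 2 against 202, 214 and 191 at 11 mM. Its fitted changes were 4.23 ± 0.34 and 5.34 ± 0.35. With so few reads in the GFP libraries, the fitted sizes for Kcnk4 and Kcnk13 depend on the fit's treatment of low counts. Kcnk13 had 10 reads in 0 of the GFP libraries and Kcnk4 in 2, so both met the condition for members only with their ChREBPβ libraries, a difference was bound to be seen in them, and their values are a description. Kcnk2, a mechanosensitive channel, went the other way, by -0.58 ± 0.10 and -0.68 ± 0.09.

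Voltage-gated potassium channels repolarize the membrane. Of 29 pore subunits, 6 rose (20.7%, against 21.0% of all tested genes) and 7 fell (24.1%, against 23.2%) at 2 mM, with a median of -0.13. These shares lie near those of all genes. At 11 mM, 9 rose (31.0%, against 14.3%) and 7 fell (24.1%, against 19.1%). Kcnb2, a delayed rectifier, did not pass at either glucose level (-0.13 ± 0.10 and 0.15 ± 0.10).

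The largest increases of these pore subunits were in shaker-type genes. Kcna2 was at 5.22, 5.60 and 4.87 CPM with GFP and at 79.0, 72.2 and 71.0 CPM with ChREBPβ at 2 mM, a rise of 3.82 ± 0.08 (adjusted p = 3.26e-18). At 11 mM it was at 10.2, 11.7 and 10.1 CPM against 73.1, 65.6 and 62.8 CPM, a rise of 2.66 ± 0.07 (adjusted p = 1.74e-16). Kcna6 rose by 2.27 ± 0.09 at 2 mM, from 9.30, 9.36 and 7.73 CPM to 43.0, 41.1 and 43.2 CPM, and by 1.94 ± 0.08 at 11 mM, from 7.65, 8.73 and 7.26 CPM to 33.2, 28.1 and 29.1 CPM. In both genes the lowest ChREBPβ library was several-fold above the highest GFP library. Kcna5 rose less, by 0.65 ± 0.09 and 0.59 ± 0.08. The shaker-type genes did not all share this direction: Kcna7 fell at 2 mM, and at 11 mM Kcna4 fell and Kcna3 rose.

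Genes of the M-current and related channels (Kcnq family) did not share a direction. Kcnq5 rose by 1.13 ± 0.11 and 0.48 ± 0.10. Kcnq3 fell by 1.2 ± 0.27 at 2 mM, from 2.79, 2.30 and 1.44 CPM to 1.07, 0.749 and 1.06 CPM, and by 1.38 ± 0.26 at 11 mM. Kcnq1 fell by 0.38 ± 0.14 and 0.34 ± 0.13, a call lost at 2 mM without GFP library b (-0.33) or c (-0.30) or ChREBPβ library c (-0.31), and at 11 mM without GFP library a (-0.34) or c (-0.30) or ChREBPβ library a (-0.24).

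Of the ether-à-go-go family, Kcnh2, which shapes the end of the β-cell spike, was at 126, 135 and 143 CPM with GFP and 98.6, 93.6 and 100 CPM with ChREBPβ at 2 mM, and at 107, 107 and 104 CPM against 81.7, 84.4 and 81.2 CPM at 11 mM. The groups were apart and it fell by 0.47 ± 0.05 (adjusted p = 5.12e-08) and 0.36 ± 0.05 (adjusted p = 2.29e-06), while its relative Kcnh6 changed by 0.04 ± 0.06 and 0.09 ± 0.06 and did not pass. The A-type channels split. Kcnd3 rose by 0.67 ± 0.12 at 2 mM and 1.22 ± 0.12 at 11 mM, and Kcnd1 fell by 0.97 ± 0.10 and 0.50 ± 0.10. Kcnc2, a fast delayed rectifier, fell by 1.25 ± 0.23 at 2 mM, from 2.98, 3.53 and 2.69 CPM to 1.90, 1.12 and 1.04 CPM, and by 1.05 ± 0.23 at 11 mM.

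Among 10 auxiliary potassium channel subunits, Kcnab3 and Kcne2 rose at both glucose levels. Kcnab3, a cytosolic β subunit of shaker channels such as Kcna2, was at 3.42, 3.0 and 3.46 CPM with GFP and at 31.8, 31.0 and 31.9 CPM with ChREBPβ at 2 mM, a rise of 3.26 ± 0.09 (adjusted p = 1.82e-16). At 11 mM the levels were 9.73, 10.6 and 12.1 CPM against 37.5, 33.6 and 37.8 CPM, and it rose by 1.75 ± 0.07 (adjusted p = 1.40e-13). Kcne2, a single-span subunit that modulates Kcnh2 and Kcnq1 channels, rose by 1.61 ± 0.15 and 2.40 ± 0.14. Kcnmb4, a subunit of the large-conductance calcium-activated channel, fell by 0.59 ± 0.11 and 0.74 ± 0.11. Kcnip1, which binds the A-type channels, fell by 0.39 ± 0.06 at 2 mM. It overlaps Kcnmb1 in the annotation, a gene with a total of 0 reads over all libraries.

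The calcium- and sodium-activated potassium channels held 6 genes. At 2 mM 2 fell (33.3%, against 23.2% of all tested genes). At 11 mM 1 rose (16.7%, against 14.3%) and 2 fell (33.3%, against 19.1%). Kcnma1, the large-conductance pore, did not pass (-0.24 ± 0.07 and -0.12 ± 0.07). Kcnn1, a small-conductance channel, fell by 0.76 ± 0.11 and 0.70 ± 0.10. Its relative Kcnn2 fell by 0.50 ± 0.20 and 0.63 ± 0.19, with the call at 2 mM lost without any of 8 of the 12 libraries (to -0.30 without GFP library c at 2 mM) and at 11 mM without GFP library b (-0.49). Kcnn3 differed between ChREBPβ and GFP at 11 mM, where it rose by 0.75 ± 0.24 (0.664, 0.723 and 0.635 CPM against 1.40, 1.02 and 0.969 CPM). That call was lost without GFP library c (0.71) or ChREBPβ library a (0.56) of 11 mM. In GFP cells Kcnn3 was lower at 11 than at 2 mM, by -0.785 from 1.32, 1.05 and 1.12 CPM. This glucose call was lost without any of 3 libraries (-0.776 to -0.69). The change of Kcnn3 with ChREBPβ at 2 mM and the difference between glucose levels did not pass.

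Of the 9 inward rectifiers other than Kcnj11, 2 fell at 2 mM (22.2%, against 23.2% of all tested genes) and 3 at 11 mM (33.3%, against 19.1%). Kcnj2, a strong rectifier that holds the resting potential, fell by 0.38 ± 0.12 at 2 mM (10.3, 7.32 and 8.49 CPM against 7.02, 6.83 and 6.14 CPM) and by 0.78 ± 0.11 at 11 mM (11.5, 14.3 and 12.8 CPM against 7.90, 7.77 and 6.75 CPM). The call at 2 mM was lost without GFP library a (-0.25) or ChREBPβ library c (-0.32) of 2 mM. Kcnj5, a G-protein-gated rectifier, also passed at both levels, but it averaged 0.183 CPM over all libraries and had at most 3 reads in each ChREBPβ library at 11 mM, so no fold is given. It reached 10 reads in 4 libraries, all of them GFP, and so met the condition for members only with its GFP libraries. A difference was bound to be seen in Kcnj5, and its result is a description. Kcnj9 did not pass in either comparison.

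Sodium channels gave mixed changes. Of 8 α subunits, 2 rose and 4 fell at 2 mM (median -0.34), and 2 rose and 2 fell at 11 mM (median -0.09). Scn3a, a main sodium channel of rodent β-cells, was at 181, 164 and 152 CPM with GFP and 133, 130 and 124 CPM with ChREBPβ at 2 mM, and fell by 0.36 ± 0.06 (adjusted p = 2.68e-05). At 11 mM it fell by 0.30 ± 0.06 (159, 175 and 160 CPM against 143, 129 and 131 CPM), and the change was -0.25 and missed the minimum without GFP library b of 11 mM. Scn8a fell by 0.33 ± 0.08 at 2 mM. Scn1a fell by 1.04 ± 0.26 at 2 mM and 0.73 ± 0.25 at 11 mM, where the call was lost without GFP library b (-0.50) or ChREBPβ library b (-0.65). Scn9a passed at 2 mM with -0.98 ± 0.39, but this rested on GFP library c at 1.96 CPM, beside 0.845 and 0.583 CPM in the other GFP libraries. Without it the change was -0.31 and the call was lost, as it also was without any of the ChREBPβ libraries at 2 mM (-1.04 to -0.90).

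Scn4a, the sodium channel of skeletal muscle, rose by 2.58 ± 0.27 at 2 mM, from 0.294, 0.262 and 0.481 CPM to 1.72, 2.37 and 2.08 CPM, and by 2.35 ± 0.23 at 11 mM. Scn7a, a sodium-sensing channel, rose by 1.23 ± 0.10 (6.25, 4.75 and 4.52 CPM against 11.8, 12.2 and 12.1 CPM) and 0.85 ± 0.09. Of the β subunits, Scn3b was at 128, 121 and 126 CPM with GFP and at 81.6, 86.1 and 82.0 CPM with ChREBPβ at 2 mM and fell by 0.59 ± 0.05 (adjusted p = 4.01e-09). It fell by 0.29 ± 0.05 at 11 mM, where the change was -0.25 and under the minimum without ChREBPβ library c.

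**Figure D4:**
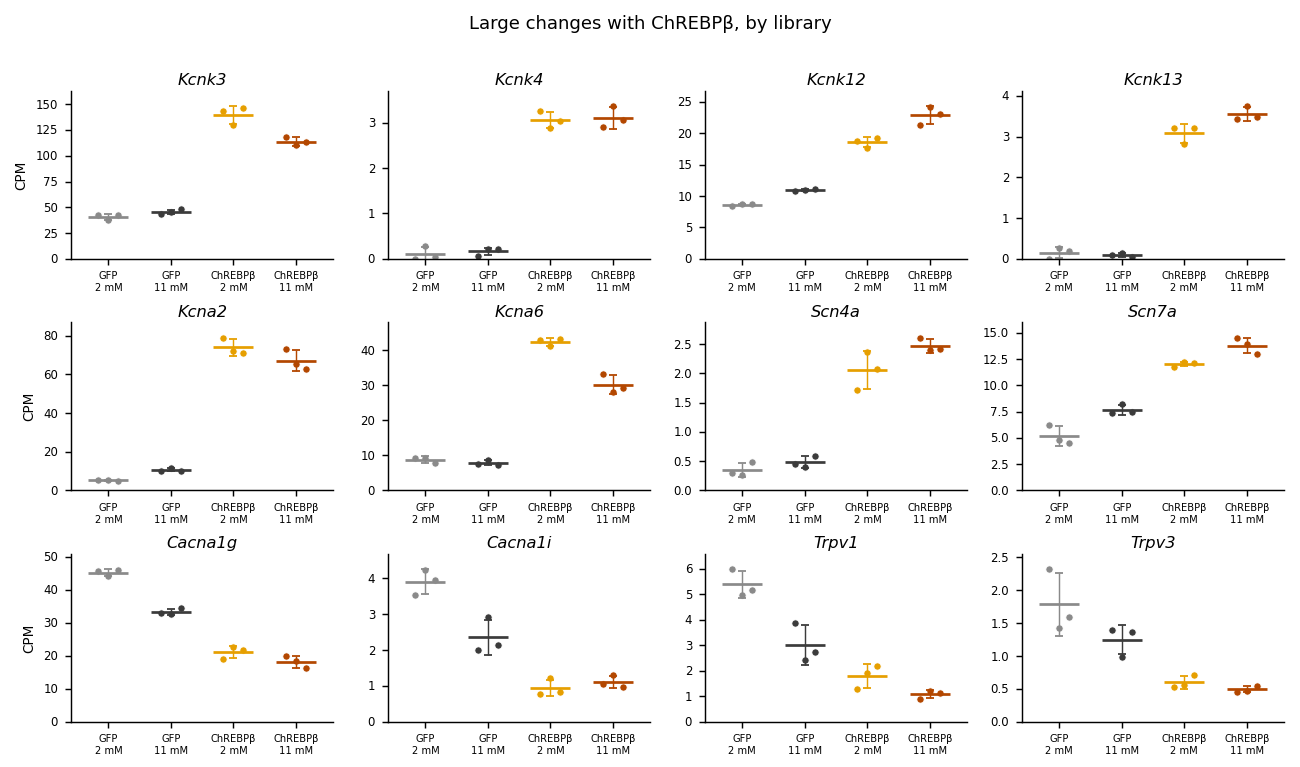
The levels of 12 genes with large changes are plotted in CPM from 0, each panel with its own scale, with 1 point per library, the horizontal bar at the mean and whiskers of 1 SD (n = 3). Kcnk4 and Kcnk13 lie close to 0 with GFP and near 3 CPM with ChREBPβ, and Cacna1g, Cacna1i, Trpv1 and Trpv3 lie lower with ChREBPβ at both glucose levels.

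TRP channels are cation channels opened by ligands, heat or calcium. Of the 15 genes of this list, 3 rose and 5 fell at 2 mM (median -0.18), and 2 rose and 5 fell at 11 mM (median -0.07). Trpv1, the capsaicin receptor, was at 5.99, 4.99 and 5.19 CPM with GFP and at 1.29, 1.93 and 2.18 CPM with ChREBPβ at 2 mM, and at 3.89, 2.41 and 2.75 CPM against 0.904, 1.21 and 1.15 CPM at 11 mM. It fell by 1.53 ± 0.20 and 1.48 ± 0.21, with the groups apart. Trpv3 fell by 1.53 ± 0.27 and 1.35 ± 0.26. It overlaps Aspa in the annotation. Trpv6, a calcium-selective channel, fell by 0.74 ± 0.20 and 1.07 ± 0.19, and Trpc6, a channel opened by diacylglycerol, by 0.73 ± 0.24 and 1.01 ± 0.25, with the Trpc6 call at 2 mM lost without GFP library c (-0.53) or ChREBPβ library b (-0.68).

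Trpc4 fell with ChREBPβ while it rose with glucose. It stood at 16.7, 17.3 and 15.2 CPM with GFP and at 9.10, 9.77 and 8.70 CPM with ChREBPβ at 2 mM, and at 22.1, 21.8 and 23.0 CPM against 15.7, 13.6 and 13.0 CPM at 11 mM, changes of -0.83 ± 0.08 and -0.66 ± 0.07. Trpm2, a channel opened by ADP-ribose, rose by 0.43 ± 0.04 at 2 mM, from 69.4, 68.5 and 73.4 CPM to 92.1, 97.5 and 94.2 CPM. At 11 mM its change was 0.18 ± 0.04, under the minimum. Trpm3, a channel opened by pregnenolone sulfate, rose by 0.84 ± 0.09 and 0.79 ± 0.09. Trpm4 and Trpm5, the calcium-activated cation channels linked to insulin release, did not pass (-0.06 ± 0.16 and -0.07 ± 0.15 for Trpm4, and 0.04 ± 0.21 and 0.01 ± 0.18 for Trpm5).

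HCN channels carry a depolarizing current on hyperpolarization. Hcn4 was at 115, 117 and 116 CPM with GFP and at 154, 148 and 148 CPM with ChREBPβ at 2 mM and rose by 0.37 ± 0.04 (adjusted p = 6.94e-08). At 11 mM it rose by 0.34 ± 0.04, or 0.26 and under the minimum with library totals. Hcn2 rose by 0.28 ± 0.04 at 2 mM, which fell below the minimum with library totals (0.18) and without GFP library a (0.25) or ChREBPβ library c (0.26) of 2 mM. Hcn3 rose by 0.83 ± 0.08 and 0.74 ± 0.08, from 16.4 to 21.5 CPM in the GFP libraries at 2 mM. It overlaps Pklr, a ChREBP target that encodes liver pyruvate kinase, which had a mean of 301 CPM and rose by 1.69 at 2 mM and 1.08 at 11 mM. The part of Pklr reads in the Hcn3 value was not tested.

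Of 8 CLC genes, Clcn4, an endosomal chloride-proton exchanger, rose by 0.89 ± 0.20 and 0.92 ± 0.18. Clcn3, the exchanger of insulin granules, lay at 115 to 135 CPM in the GFP libraries at 2 mM and at 120 to 129 CPM with ChREBPβ, and changed by -0.04 ± 0.06 (95% interval -0.15 to 0.07) and -0.04 ± 0.05 (-0.15 to 0.07). In all, 17 of the 127 channel genes overlap another gene of the count table in the RefSeq annotation of GRCr8. Because the strand setting of the counting is not given, their values are less certain than the others.

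Glucose was compared next within each virus. These comparisons share the GFP and ChREBPβ libraries with those above, so their values are set side by side and no relation between them was tested. With GFP, 14 of the 127 genes were higher at 11 than at 2 mM (11.0%, against 10.2% of all tested genes) and 24 were lower (18.9%, against 10.0%), with a median of -0.09 beside 0.00 for all genes. The 24 include Kcnj5, which met the condition for members only with GFP libraries. It was highest in those at 2 mM (0.515, 0.437 and 0.449 CPM, against 0.265, 0.134 and 0.0212 CPM at 11 mM). Its fall with glucose was thus bound to be seen and is a description. With ChREBPβ, 2 were higher (1.57%, against 0.988%) and 6 lower (4.72%, against 2.88%), with a median of -0.02 beside 0.00. With RLE factors in the scaling, 3 were higher and 5 lower.

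In GFP cells Kcnj11 and Abcc8 were lower at 11 mM, each by -0.35 (SE 0.04 and 0.06, adjusted p = 6.19e-07 and 7.45e-05). Cacna1g (-0.44 ± 0.07), Cacna1i (-0.74 ± 0.19), Cacna1b (-0.36 ± 0.09), Cacnb1 (-0.64 ± 0.10), Kcnh2 (-0.35 ± 0.05), Kcnd1 (-0.61 ± 0.10), Scn3b (-0.35 ± 0.05) and Trpv1 (-0.83 ± 0.19) were lower as well. Kcnj9, a G-protein-gated rectifier, was lower by -0.68 ± 0.18 in a gene that overlaps Igsf8. The genes that were higher at 11 mM included Kcnab3 (1.72 ± 0.10), Trpm1 (1.63 ± 0.28), Kcna2 (1.02 ± 0.10), Kcnq5 (0.85 ± 0.11), Kcnj2 (0.57 ± 0.11), Trpc4 (0.45 ± 0.08), Kcnk12 (0.35 ± 0.08) and Trpm2 (0.35 ± 0.04). Cacna1a was higher by 0.27 ± 0.06, at the minimum, and lost the call with library totals (0.24) and without library b of GFP at 2 mM (0.21) or at 11 mM (0.20).

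In ChREBPβ cells the genes higher at 11 mM were Trpc4 (0.62 ± 0.08, adjusted p = 5.68e-05) and Kcnk12 (0.30 ± 0.06, adjusted p = 0.00563). The 6 lower genes were Kcna6 (-0.49 ± 0.07, adjusted p = 0.000217), Kcnk3 (-0.30 ± 0.06, adjusted p = 0.00172), Trpv1 (-0.77 ± 0.22), Clcn6 (-0.28 ± 0.07), Cacna2d2 (-0.27 ± 0.07) and Kcnip3. Leaving out 1 library ended the call of Trpv1 (without any of 5 of the 12 libraries, -0.85 to -0.62), Clcn6 (4 libraries, -0.27 to -0.21), Cacna2d2 (6 libraries, -0.29 to -0.26) and Kcnk12 (2 libraries, 0.26 each). Trpc4 and Kcnk12 were higher at 11 mM with either virus, and Trpv1 was lower with either.

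For 11 genes the change with ChREBPβ was not the same at 11 as at 2 mM glucose, 5 with a positive and 6 with a negative difference (3.94% and 4.72% of the channel genes, against 1.56% and 4.74% of all tested genes). A negative difference here means a smaller rise or a larger fall at 11 mM. Kcnab3 differed by -1.52 ± 0.12 (adjusted p = 8.69e-08), Trpm1 by -1.53 ± 0.33 (adjusted p = 0.00648), Kcna2 by -1.16 ± 0.11 (adjusted p = 1.25e-06), Kcnq5 by -0.65 ± 0.14 (adjusted p = 0.00785) and Kcnk3 by -0.46 ± 0.08 (adjusted p = 0.00132). These 5 calls were kept in every alternative tried other than the minimum of 2-fold, which Kcnq5 and Kcnk3 did not meet. For Kcnab3, Trpm1, Kcna2 and Kcnq5 the GFP libraries at 11 mM were all above those at 2 mM, while the ChREBPβ libraries at 2 and 11 mM differed little: Kcnab3 changed with glucose by 0.20 ± 0.07 in ChREBPβ cells, Trpm1 by 0.10 ± 0.18, Kcna2 by -0.14 ± 0.06 and Kcnq5 by 0.20 ± 0.09, and none of these passed the test.

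Trpm1, a cation channel of melanocytes and retinal bipolar cells, shows this pattern at low levels. It was at 0.257, 0.875 and 0.641 CPM in GFP cells at 2 mM, at 1.99, 1.55 and 2.12 CPM in GFP cells at 11 mM, at 4.37, 4.19 and 3.44 CPM with ChREBPβ at 2 mM and at 3.77, 4.0 and 5.01 CPM with ChREBPβ at 11 mM. Kcnk3 had a different pattern, since GFP libraries changed little with glucose (0.16 ± 0.06) and ChREBPβ libraries were lower at 11 mM (-0.30 ± 0.06).

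The positive differences were smaller or less certain. Kcne2 differed by 0.80 ± 0.21 (adjusted p = 0.0243): it was at 2.13, 3.24 and 2.92 CPM with GFP and 8.67, 8.86 and 8.06 CPM with ChREBPβ at 2 mM, and at 2.48, 1.74 and 1.78 CPM against 9.36, 11.6 and 10.9 CPM at 11 mM. Kcnd3 differed by 0.56 ± 0.17, from 5.99, 6.01 and 7.40 CPM against 10.5, 10.8 and 9.51 CPM at 2 mM to 4.91, 6.00 and 4.27 CPM against 11.8, 12.7 and 10.7 CPM at 11 mM. Kcnd1 (0.48 ± 0.14), Kcnip1 (0.29 ± 0.08) and Scn3b (0.29 ± 0.07) had smaller decreases with ChREBPβ at 11 mM than at 2 mM, and in each the GFP libraries at 11 mM were all below those at 2 mM. Leaving out a single library ended the call of Kcnd1 with 9 of the 12 libraries (0.42 to 0.50), Kcnd3 with 8 (0.45 to 0.60), Kcnip1 with 6 (0.24 to 0.30), Kcne2 with 5 (0.66 to 0.76) and Scn3b with 1 (0.24 without ChREBPβ library a at 11 mM).

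**Figure D5:**
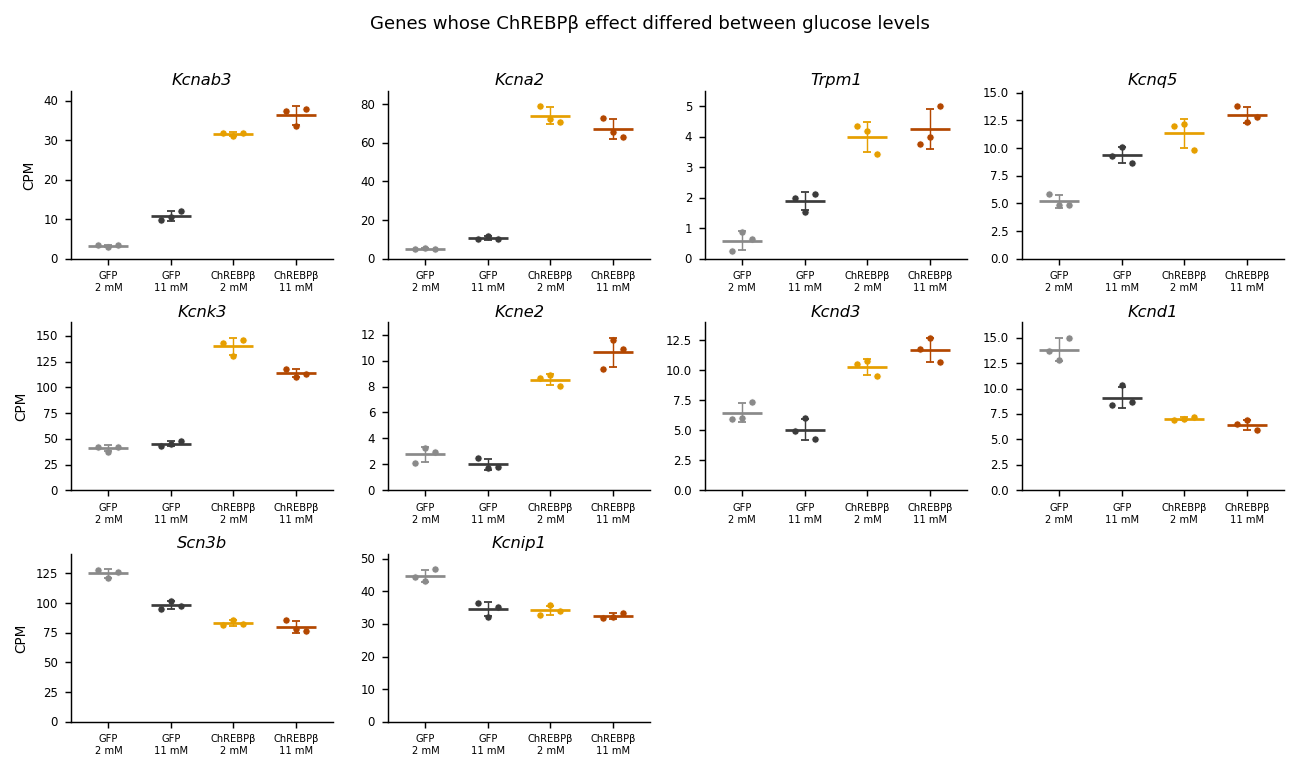
Of the 11 genes whose ChREBPβ effect differed between glucose levels, 10 are plotted in CPM from 0, each panel with its own scale, with 1 point per library, the horizontal bar at the mean and whiskers of 1 SD (n = 3). In Kcnab3, Kcna2, Trpm1 and Kcnq5 the GFP points are higher at 11 mM than at 2 mM and the ChREBPβ points stand close together at both glucose levels, whereas in Kcnd1, Scn3b and Kcnip1 the GFP points at 11 mM lie below those at 2 mM.

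Kcnab3, Kcna2 and Trpm1 rose with ChREBPβ at both glucose levels and with glucose in GFP cells and had the largest negative differences, so the 250 bases before their annotated starts are shown here. The sequences are from RefSeq on build GRCr8, on the plus strand, at chr10:54546388-54546637 for Kcnab3, chr2:197393280-197393529 for Kcna2 and chr1:127130436-127130685 for Trpm1. ChREBP binds as a complex with its partner Mlx to paired E-box-like elements. The letters CANNTG, the general form of an E-box, which read the same on both strands, are in capitals wherever they occur. The windows were searched for these single letters and not for a paired element, so the capitals do not mark ChREBP elements.
Kcnab3: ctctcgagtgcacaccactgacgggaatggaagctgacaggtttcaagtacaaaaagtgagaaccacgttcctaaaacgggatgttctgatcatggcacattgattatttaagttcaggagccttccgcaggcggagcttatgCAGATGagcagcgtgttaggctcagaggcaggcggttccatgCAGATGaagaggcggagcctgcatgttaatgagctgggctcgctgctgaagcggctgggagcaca
Kcna2: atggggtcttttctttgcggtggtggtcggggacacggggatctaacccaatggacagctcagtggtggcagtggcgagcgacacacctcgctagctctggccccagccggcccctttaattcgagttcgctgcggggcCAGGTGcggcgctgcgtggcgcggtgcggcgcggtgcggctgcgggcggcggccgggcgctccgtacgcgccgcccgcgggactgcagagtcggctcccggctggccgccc
Trpm1: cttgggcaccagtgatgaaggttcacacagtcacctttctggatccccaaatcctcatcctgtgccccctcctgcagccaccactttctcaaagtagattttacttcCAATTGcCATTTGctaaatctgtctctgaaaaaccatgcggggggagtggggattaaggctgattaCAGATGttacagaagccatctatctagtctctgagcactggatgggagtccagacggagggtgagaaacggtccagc
The window of Kcnab3 holds 2 such matches, that of Kcna2 holds 1 and that of Trpm1 holds 3, and none holds CACGTG, the E-box core, which is included among the CANNTG matches. Promoter windows were at hand for 84 of the 127 channel genes. CANNTG stands in 64.3% of these windows and in 65.5% of all 33469 windows of the table, and in 13 of the 15 windows of genes that rose at both glucose levels and 11 of the 19 of genes that fell at both. CACGTG stands in 6 of the 84 (7.14%, against 5.59% of all windows), 1 of them among the rising (Clcn4) and 1 among the falling genes (Trpv3). These are counts of letters in a short window and not binding sites.

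Other genes of excitability that do not fall under the channel names were taken as a list of 36, with 33 tested: pumps, calcium stores, store-operated entry, volume-regulated and other channels and the glucose transporter Slc2a2, among others. With ChREBPβ, 5 rose and 13 fell at 2 mM (median -0.19), or 15.2% and 39.4% of the list against 21.0% and 23.2% of all tested genes. At 11 mM 4 rose and 11 fell (median -0.08), or 12.1% and 33.3% against 14.3% and 19.1%. Orai2, a subunit of the store-operated calcium channel, rose by 1.48 ± 0.04 at 2 mM and 1.11 ± 0.04 at 11 mM, from 62.7, 65.7 and 65.0 CPM with GFP to 177, 179 and 182 CPM with ChREBPβ at 2 mM. Slc2a2, the glucose transporter of β-cells, rose by 0.50 ± 0.04 and 0.46 ± 0.04. Ryr2, a ryanodine receptor of calcium stores, fell by 1.02 ± 0.12 and 0.56 ± 0.12, and Itpr2, an inositol trisphosphate receptor, by 0.93 ± 0.17 and 0.58 ± 0.17. Ano6, a calcium-activated scramblase and channel, fell by 0.92 ± 0.07 and 0.55 ± 0.07.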

How the data were processed

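RNA of INS-1 832/13 cells in 12 libraries, 3 per group, was sequenced in paired-end reads after amplification, per the labels and the study's methods. The authors deposited raw counts per gene, with no normalization, and the mean count (unit: estimated counts, since means need not be whole) of each group, which equals the mean of its 3 columns in all 28728 rows and was used only for that check. The submitters' processing notes name the build Rnor_6.0 and edgeR, and the aligner, the counting program and its strand setting are not given in the sources used here. One entry without a name (0.0043% to 0.00601% of a library) was left out, and the number of other columns of single samples was 0.

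Genes were filtered with filterByExpr by group and scaled with TMM factors (0.9581 to 1.057) in edgeR 4.0.16 (R 4.3.3, limma 3.58.1). All 12 libraries were fitted together by quasi-likelihood, with 1 coefficient per group, as the study's methods name edgeR on raw counts with a minimum change of 1.2-fold. Contrasts were ChREBPβ against GFP at each glucose level, 11 against 2 mM within each virus, and the difference of the ChREBPβ effects. Standard errors were derived from the log2 fold change and its F statistic. The test was tested on simulated data. DESeq2 1.42.0 was an alternative, with RLE factors, library totals, no filter, 10 counts in every library, a replicate block, minimum changes of 2-fold and none, and the removal of each library in turn. Python 3.11.15 and matplotlib 3.10.9 made tables and plots.

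Genes named are known β-cell channels, and, among called members averaging 0.5 CPM or more, with groups that do not overlap, the 8 largest changes each way for ChREBPβ and the 5 each way for glucose, the 5 each way for the difference without the condition on overlap, and from the list of other excitability genes the 3 largest each way. Cacna1b, Cacna1s, Cacna2d4, Cacnb4, Clcn4, Hcn3, Hcn4, Kcna3, Kcna4, Kcna5, Kcna7, Kcnj2, Kcnk2, Kcnmb4, Kcnn1, Kcnn2, Scn7a, Trpm3, Kcnj5 and Kcnip3 were named or given values after those were seen. Values of some named genes are not reported here. The members and lists were chosen with earlier results of these data known. No replicate of 1 group matched another within sampling noise. Levels of different genes were not compared per length. Overlapping genes and promoters were taken from RefSeq on GRCr8 by symbol (127 of 127 matched), a build that differs from that of the counts. Intervals are 95% intervals from the standard errors of the edgeR fit, which rest on the spread between libraries. RNA was amplified, so reads are not independent molecules.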

Additional observations from a re-analysis of the deposited data

Results flagged for a closer look

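In 11 channel genes the change with ChREBPβ was unequal at 11 and 2 mM glucose, by edgeR's quasi-likelihood test of the difference with adjusted p under 0.05 and a difference of at least 1.2-fold. For 10 of them the difference is given here. On the log2 scale and as the effect at 11 mM minus that at 2 mM, it was -1.531 for Trpm1, -1.519 for Kcnab3, -1.158 for Kcna2, -0.647 for Kcnq5 and -0.455 for Kcnk3. It was 0.795 for Kcne2, 0.556 for Kcnd3, 0.478 for Kcnd1, 0.294 for Scn3b and 0.290 for Kcnip1. Groups of 3 libraries were not examined for a library far from the others.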

How the results depend on the processing

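With a minimum change of 2-fold the number of channel genes called was 24 for ChREBPβ at 2 mM, 21 at 11 mM, 4 for glucose with GFP, 0 for glucose with ChREBPβ and 3 for the difference. In the same order, the counts over all 14669 tested genes were 748 higher and 708 lower, 571 and 421, and 183 and 111. For glucose with ChREBPβ they were 7 and 21, and for the difference 11 and 97. Of the 4 channel genes for glucose with GFP, 1 was lower. This was Kcnj5, which met the condition for members only with GFP libraries. For glucose with ChREBPβ edgeR gave 8 calls at 1.2-fold and 32 channel genes at an unadjusted p under 0.05, and DESeq2 also gave 0 at 2-fold. Leaving out 1 library at a time gave 60 to 67 calls at 2 mM, 60 to 68 at 11 mM, 31 to 38 for glucose with GFP, 3 to 8 for glucose with ChREBPβ (3 without ChREBPβ library b at 11 mM, and 5 without library c of ChREBPβ at 2 or at 11 mM) and 6 to 13 for the difference (6 without ChREBPβ library c at 2 mM). RLE factors and DESeq2 gave 3 higher and 5 lower for glucose with ChREBPβ, in place of 2 and 6. The other alternatives kept these counts within 1.5 times.

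Of 390 values of named genes, 176 were called, 37 of these lost the call in at least 1 alternative other than the minimum change, 139 kept it, and no called value reversed. With the replicate letter as a block, 65, 65, 38, 8 and 12 genes were called in the 5 comparisons, in the order above. The block ended the calls of Cacnb4 (0.56, adjusted p = 0.0543) and Kcnn2 (-0.50, adjusted p = 0.0552) at 2 mM and of Kcne2 for glucose with GFP (-0.46, adjusted p = 0.0532), and Scn9a for glucose with GFP and Cacna1i for the difference passed with it. Same-lettered libraries did not deviate together (correlations of -0.114 to 0.0644 over 18 pairs). Genes with few reads, such as Kcnk4, Kcnk13, Kcnj5 and Scn9a, are those in which depth limits the precision most.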
